A study of Homo sapiens with 24 samples.

Results

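The genes described here are 10 mRNAs of the NF-kB pathway: the transcription factor subunits NFKB1, NFKB2 and RELA, the inhibitors NFKBIA and TNFAIP3, the chemokines CXCL1 and CXCL8, the cytokines LIF and IL18, and the adhesion molecule ICAM1. They were chosen by name, with earlier results of these data known, as subunits and inducible targets of NF-kB, because MNK kinases are known to act on the translation of inflammatory mRNAs. They are 10 of the 54583 genes in the count table, and 10 of the 12058 genes that had at least 1 read in each of the 24 libraries and were tested.

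PANC1, a human pancreatic ductal adenocarcinoma line, was grown on 12 plates and treated for 6 h with DMSO (the solvent), with CID661578 at 40 µM or with cercosporamide at 5 µM. The study describes cercosporamide as a selective MNK2 inhibitor. In its kinase assays cercosporamide also partly inhibited MNK1 and JAK3, and lowered the activity of numerous kinases in a wider screen. The study names MNK2 as the target of CID661578, which left the kinase activity of MNK2 unchanged in vitro. The doses of the compounds differ, and their values are given side by side with no comparison between them. Each treatment had 4 replicate plates, and each plate gave total cytosolic RNA and polysome-associated RNA, the mRNA carrying more than 3 ribosomes. The cells are a single line grown in culture, so the replicates share 1 origin.

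NF-kB is a family of dimeric transcription factors that inhibitors of the IkB family hold in the cytoplasm until an upstream kinase complex marks those inhibitors for degradation. The freed dimers switch on chemokines, cytokines and adhesion molecules, and with them their own inhibitors, which end the response. Many of these target mRNAs are short-lived through AU-rich elements in their 3′ UTRs, and pathway activity is common in pancreatic ductal cancer.

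The libraries held between 9268041 and 12184749 reads on genes in 23 of 24 cases. The exception was cercosporamide polysome replicate 4, with 1592459 reads, so its counts of rare mRNAs are small. Of 8 markers checked for the line itself, 7 of duct and epithelium and the mesenchymal gene VIM, between 7 and 8 had a read in each library. CDH1, the epithelial cadherin, was at 0 in 13 of 24. The summed level of the 8 ran from 6183 to 24299 counts per 1e+06 reads (CPM), and KRT8 was the most abundant of them. In polysome-associated RNA it ran from 11834 to 18440 CPM with DMSO, 11917 to 15886 with CID661578 and 17791 to 24299 with cercosporamide, where KRT19, KRT18 and EPCAM were called higher. The part of these markers in the results was not tested. Of the 12 immune markers at most 7 had a read in any library, with a summed level of 308.5 to 861.1 CPM, nearly all CD68, while PTPRC, CD3E, MS4A1 and FCGR3A were at 0 in all 24. The 5 endothelial markers summed to between 0 and 1.68 CPM, with KDR the most abundant over all libraries and CDH5 and TEK at 0 throughout. The 5 fibroblast markers summed to between 1.80 and 18.6 CPM, with COL3A1 the most abundant over all libraries and DCN at 0 throughout.

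CXCL8 mRNA rose with each compound, in total and in polysome-associated RNA, and it had the largest estimate of the 10 in all those comparisons. CXCL1 rose with cercosporamide in both kinds of RNA, and LIF rose with CID661578 in both. With cercosporamide the polysome-associated mRNA of NFKB2, NFKBIA and TNFAIP3 also rose, while the subunits NFKB1 and RELA and the targets IL18 and ICAM1 were not called with either compound. A gene was called when edgeR's quasi-likelihood test gave a Benjamini-Hochberg adjusted p below 0.15 over all 12058 genes, a threshold the study used with a different test, anota2seq, with a change of over 1.2-fold asked as well wherever the fractions were compared. In total RNA, CID661578 changed 2 of 10 members, both higher, against 0.448% of all genes called, and cercosporamide changed 2 of 10, both higher, against 0.381%. In polysome-associated RNA the same counts were 2 of 10 against 10.1% of all genes with CID661578, and 5 of 10, all higher, against 32.2% with cercosporamide. As the members were chosen with results known, these shares describe the 10 genes and test nothing about the group.

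Translational efficiency (TE) was taken as the ratio of polysome-associated to total RNA of a plate, and a TE change as the change of that ratio against DMSO. With cercosporamide 2 of 10 members were called for TE, CXCL8 higher and LIF lower, against 28.4% of all genes. With CID661578 edgeR's test called 0 of 10 members, against 0.207% of all genes. DESeq2 called 1 of them, and 1, CXCL8, had an unadjusted p below 0.05 in edgeR. The comparisons of the compounds share their DMSO libraries. The median log2 change of the 10 members was 0.33 in total RNA with CID661578 and 0.51 with cercosporamide, beside −0.01 over all genes in both cases. In polysome-associated RNA the member medians were 0.27 and 0.44, again beside −0.01 over all genes, and for TE they were −0.09 and −0.02, beside 0.03 and −0.00.

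**Figure D1:**
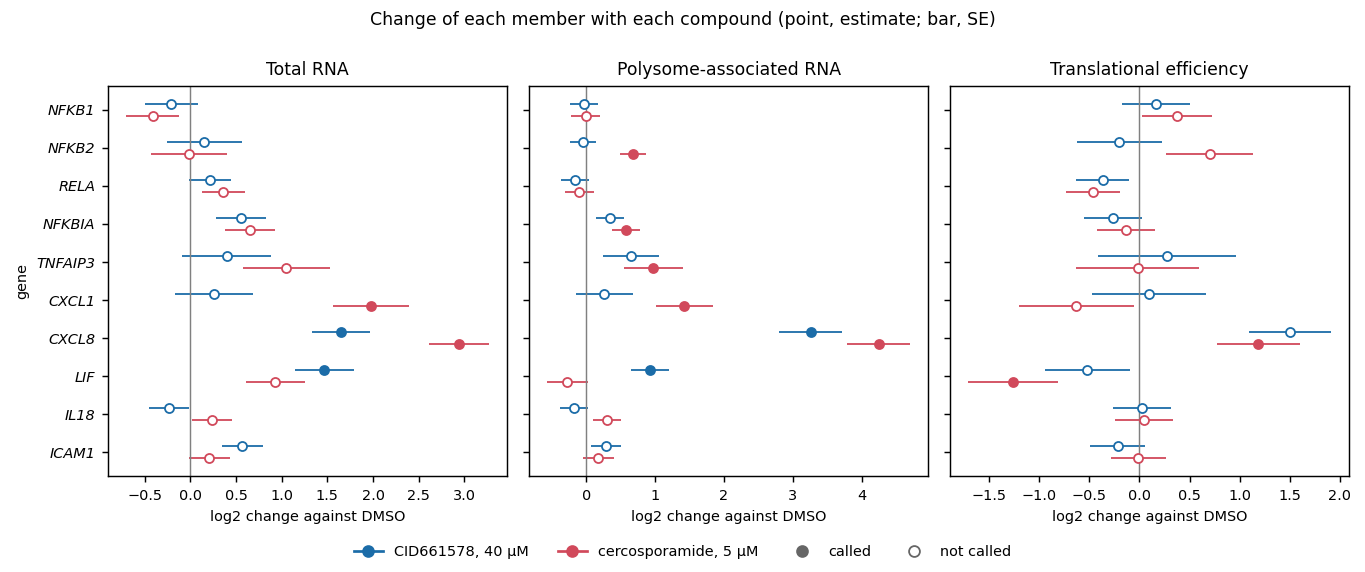
Log2 change of each member against DMSO (x axis) in total RNA, polysome-associated RNA and TE, by gene (y axis), with CID661578 (blue) and cercosporamide (red), n = 4 plates a treatment; points are estimates, bars their SE and filled points are called. For each compound CXCL8 has the highest estimate in total and in polysome-associated RNA, up to 4.25 with cercosporamide.

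Replicate numbers mattered for these calls, because the tests compared plates of the same number. Fitted without that block, 0 of 10 members were called in total RNA with CID661578, 0 with cercosporamide and 0 in polysome-associated RNA with CID661578, and 2 in polysome-associated RNA with cercosporamide. The same fit called 5, 0, 69 and 1921 of all 12058 genes in these comparisons. In bulk RNA of this kind, fewer expressing cells and less RNA per cell cannot be told apart. The counting ignored strand, so reads from genes that overlap a member on the other strand would be counted with it.

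In cells given DMSO alone, levels per kilobase of transcript in total RNA spanned a wide range. IL18 was highest, at 55.7 ± 12.8 CPM per kb (SD, n = 4), followed by ICAM1 at 24.5 ± 3.91, RELA at 21.5 ± 1.59 and NFKBIA at 19.2 ± 6.68. ICAM1, RELA and NFKBIA differed by less than the spread of NFKBIA. Next came CXCL8 at 2.57 ± 1.70, CXCL1 at 2.40 ± 0.907, NFKB2 at 2.30 ± 1.05, NFKB1 at 1.98 ± 0.705 and LIF at 1.62 ± 0.726 CPM per kb, a set whose neighbours did not differ beyond their spread. TNFAIP3 was lowest, at 0.151 ± 0.0138 CPM per kb, from counts of 6 to 9 per library.

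The members were also spread unevenly between the fractions of the DMSO cells. Polysome-associated over total RNA was called for 9 of 10 members, 6 higher and 3 lower, against 56.0% of all genes, with TNFAIP3 the exception at a log2 ratio of 0.57 (SE 0.51). The subunits lay toward the polysomes, with log2 ratios of 1.36 for NFKB2 (SE 0.30) and 1.17 for NFKB1 (SE 0.24). The chemokines lay toward the other side, with −2.93 for CXCL8 (SE 0.33) and −0.97 for CXCL1 (SE 0.41), as did IL18 at −1.05 (SE 0.21). LIF at 0.58, NFKBIA at 0.52, RELA at 0.44 and ICAM1 at 0.41 completed the called members. Scaling each fraction on its own moved the median of all genes from −0.01 to 0.26, with RELA at 0.71, NFKBIA at 0.80 and ICAM1 at 0.68, and CXCL1, at −0.70, was then not called. Several of the smaller ratios lost their call without 1 replicate: NFKBIA without replicate 3 (0.42), CXCL1 without replicate 1 (−0.68) or 3 (−0.85), LIF without replicate 2 (0.64) or 3 (0.43), and ICAM1 without replicate 3 (0.38) or 4 (0.33). With the trend of each library on GC content removed, an alternative chosen after seeing the data, RELA (0.24), LIF (0.42) and ICAM1 (0.27) were not called.

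**Figure D2:**
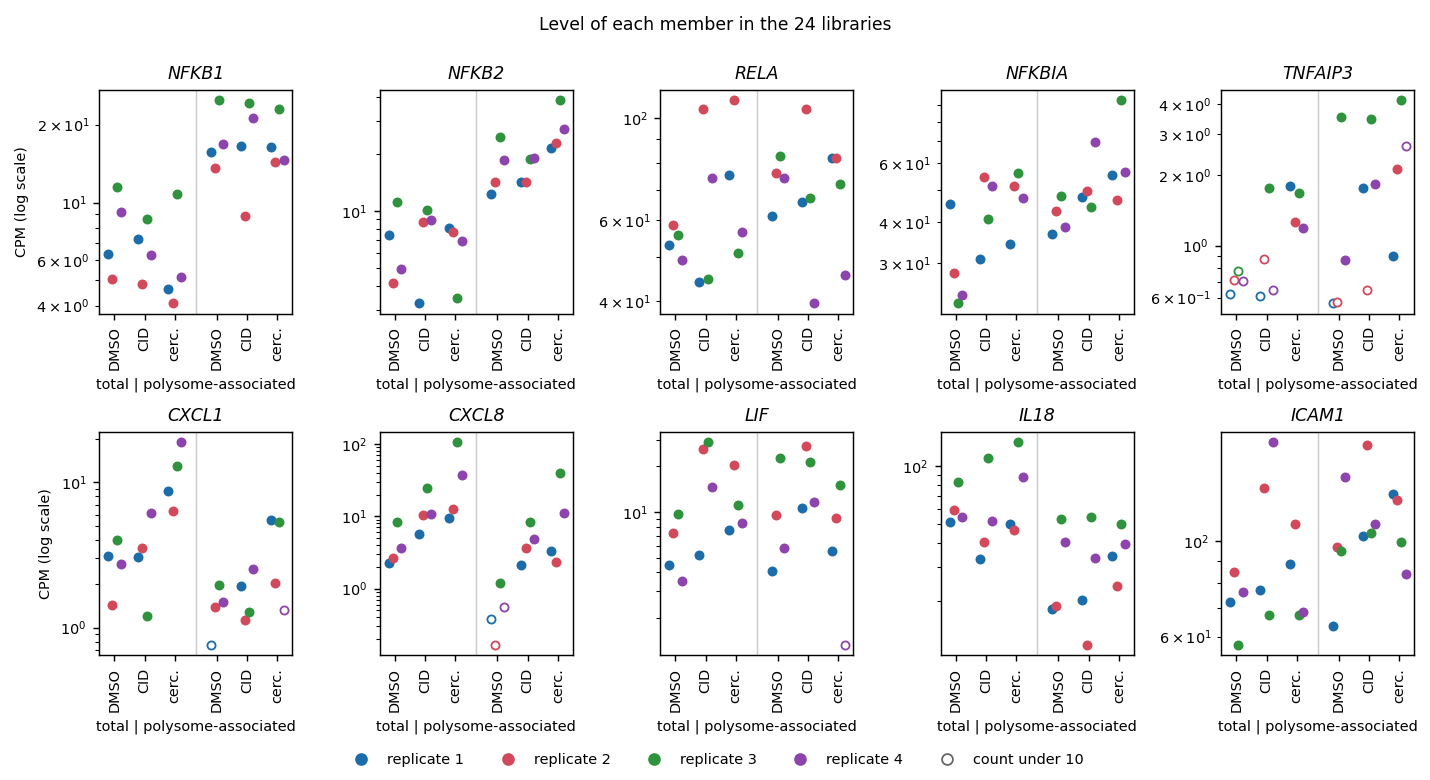
CPM of each member (y axis, log scale) in the 24 libraries, by treatment within total and polysome-associated RNA (x axis), coloured by replicate, with open points for counts under 10. CXCL8 in DMSO polysome-associated RNA lies between 0.164 and 1.21 CPM, below all polysome-associated libraries of both compounds.

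Promoter sequence of RefSeq (build GRCh38.p14) was found for 8 of the 10 members, all but LIF and IL18, with 12 listed starts between the 8. The 120 bases before each start were searched on both strands for the kB-like letters GGNNNTTCC, which on the other strand read GGAANNNCC. Some matches read as both at once. Of all 35116 listed promoters 8.94% held a match in that window, and of the member promoters 7 of 12 did, from 6 of 8 genes. Over 250 bases the shares were 17.1% of all promoters and 8 of 12 member promoters. A longer kB consensus, searched in the 120 bases, matched 4.98% of all promoters and 6 of 12 member promoters, from 5 of 8 genes. CXCL8 held no match to it. The members were picked as known NF-kB subunits and targets, so these shares describe them and test nothing. Windows are shown for the members called higher in polysome-associated RNA with cercosporamide, with the matching letters in capitals and the last base next to the start. They lie at chr4:73740449-73740568 (plus strand) for CXCL8, chr4:73869273-73869392 (plus) for CXCL1, chr14:35404750-35404869 (minus) for NFKBIA, chr6:137867139-137867258 (plus) for TNFAIP3 and chr10:102395585-102395704 (plus, the third of 3 listed starts) for NFKB2. Among members not called with either compound, NFKB1 also held a match, at −48 from its first listed start, while RELA and ICAM1 held none in this window. The first NFKB2 start held none, and the second, which is not shown, held 3. A match describes letters and is not evidence of binding.
CXCL8: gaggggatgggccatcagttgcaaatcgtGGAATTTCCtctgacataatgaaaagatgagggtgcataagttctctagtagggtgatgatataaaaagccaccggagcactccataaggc
CXCL1: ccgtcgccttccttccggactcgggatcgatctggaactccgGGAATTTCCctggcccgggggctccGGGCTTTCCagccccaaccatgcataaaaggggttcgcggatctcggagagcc
NFKBIA: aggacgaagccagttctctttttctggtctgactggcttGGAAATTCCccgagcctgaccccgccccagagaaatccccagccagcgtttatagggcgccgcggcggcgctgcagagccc
TNFAIP3: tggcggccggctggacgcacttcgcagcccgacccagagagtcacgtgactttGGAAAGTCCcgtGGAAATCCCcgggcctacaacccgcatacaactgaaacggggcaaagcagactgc
NFKB2: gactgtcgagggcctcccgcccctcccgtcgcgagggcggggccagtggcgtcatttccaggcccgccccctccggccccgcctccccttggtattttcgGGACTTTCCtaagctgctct

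Against DMSO the subunit genes gave 1 call between them. NFKB2, the precursor of p52, measured 7.47, 4.17, 11.2 and 4.95 CPM in DMSO total RNA and 12.3, 14.3, 24.4 and 18.6 in DMSO polysome-associated RNA (replicates 1 to 4). With cercosporamide it measured 8.11, 7.74, 3.47 and 6.94 CPM in total RNA. In polysome-associated RNA the values were 21.5, 22.8, 38.4 and 27.1 CPM. Each polysome library was above its DMSO plate of the same number, although the lowest treated values lay below the highest DMSO value. NFKB2 rose by 0.68 log2 in polysome-associated RNA with cercosporamide (SE 0.19, higher in 4 of 4 replicates, Benjamini-Hochberg adjusted p 0.0159 in edgeR's quasi-likelihood test), and without the replicate block the estimate was 0.66 and was not called. In total RNA its log2 change was −0.02, and its TE change of 0.70 (SE 0.43) was not called. That TE change was 0.15 without replicate 3, and 1.06 and called with the GC trend removed.

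NFKB2 with CID661578 gave log2 changes of 0.15 in total RNA, −0.04 in polysome-associated RNA and −0.20 in TE, none called. NFKB1, the precursor of p50, ranged from 5.09 to 11.4 CPM in DMSO total RNA, from 4.83 to 8.65 with CID661578 and from 4.08 to 10.8 with cercosporamide. These ranges overlap. Its estimate in total RNA was −0.41 with cercosporamide (SE 0.29, lower in 4 of 4 replicates) and −0.21 with CID661578, and neither was called. RELA, the p65 subunit that carries a transactivation domain, ranged from 49.2 to 58.6 CPM in DMSO total RNA, from 44.1 to 104.6 with CID661578 and from 51.0 to 109.5 with cercosporamide. Replicate 2 was the highest RELA library with each treatment in total RNA. The TE estimate of RELA with cercosporamide was −0.47 (SE 0.27, lower in 4 of 4 replicates) and was not called.

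The inhibitors rose in polysome-associated RNA with cercosporamide. NFKBIA, which encodes IkBα, measured 45.3, 28.0, 22.7 and 24.0 CPM in DMSO total RNA, 31.0, 54.7, 40.7 and 51.2 with CID661578, and 34.4, 51.1, 56.0 and 47.2 with cercosporamide. DMSO replicate 1 stood above the other 3 DMSO libraries and within the treated range. In polysome-associated RNA NFKBIA measured 36.6, 43.2, 47.8 and 38.6 CPM with DMSO, 47.5, 49.5, 44.4 and 69.6 with CID661578, and 55.3, 46.4, 92.8 and 56.3 with cercosporamide. The groups overlap through cercosporamide replicate 2 and CID661578 replicates 1 and 3. The polysome change with cercosporamide was 0.58 (SE 0.21, higher in 4 of 4 replicates, Benjamini-Hochberg adjusted p 0.0541 in edgeR's quasi-likelihood test). It was not called without the replicate block (0.60), without replicate 3 (0.37) or without the filter on low counts (0.46). In total RNA the estimates were 0.55 with CID661578 (SE 0.27) and 0.65 with cercosporamide (SE 0.27), which did not pass. Without replicate 1 the CID661578 estimate was 0.97 and was called. The cercosporamide estimate ran from 0.42 to 1.05 as replicates were left out, and was not called.

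TNFAIP3 encodes A20, a ubiquitin-editing enzyme that shuts off signalling upstream of NF-kB, and its counts were low throughout. In DMSO total RNA the counts were 6, 7, 9 and 8, and with cercosporamide 14, 12, 13 and 12. All 4 cercosporamide libraries lay above all 4 DMSO libraries, at 1.19 to 1.80 against 0.623 to 0.780 CPM, yet the log2 change of 1.05 (SE 0.47) did not pass the test across all genes. In polysome-associated RNA the counts were 6, 7, 38 and 11 with DMSO and 11, 26, 46 and 4 with cercosporamide, the last from the library of low depth. The change there was 0.97 (SE 0.43, higher in 4 of 4 replicates, Benjamini-Hochberg adjusted p 0.120 in edgeR's quasi-likelihood test). It was not called without replicate 2 (0.59), replicate 4 (0.77) or cercosporamide replicate 4 alone (0.88), without the block (0.81), with no filter (0.88) or with edgeR's own expression filter (0.92). With CID661578 the estimates were 0.40 in total and 0.65 in polysome-associated RNA, neither called.

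CXCL8, the chemokine interleukin-8 that draws neutrophils, showed the clearest pattern. In total RNA it measured 2.28, 2.65, 8.32 and 3.62 CPM with DMSO, 5.68, 10.4, 24.9 and 10.8 with CID661578, and 9.53, 12.5, 105.9 and 37.4 with cercosporamide. Replicate 3 was the highest library under each treatment, and its DMSO value lay inside the CID661578 range and below all 4 cercosporamide values. CXCL8 in total RNA rose by 1.65 log2 with CID661578 (SE 0.32, higher in 4 of 4 replicates, Benjamini-Hochberg adjusted p 0.0346 in edgeR's quasi-likelihood test) and by 2.94 with cercosporamide (SE 0.33, 4 of 4, adjusted p 0.000481). Without the replicate block the estimates were 1.61 and 3.28 and neither was called, and without replicate 4 the CID661578 estimate was 1.68 and not called.

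The DMSO polysome libraries held few CXCL8 reads: 4, 2, 13 and 7 counts, or 0.378, 0.164, 1.21 and 0.551 CPM. With CID661578 the counts were 24, 45, 104 and 55, or 2.10, 3.63, 8.38 and 4.81 CPM. With cercosporamide they were 40, 29, 445 and 17, or 3.27, 2.37, 40.3 and 11.3 CPM. All 8 treated libraries lay above all 4 DMSO libraries. CXCL8 in polysome-associated RNA rose by 3.26 with CID661578 (SE 0.46, Benjamini-Hochberg adjusted p 0.000199 in edgeR's quasi-likelihood test) and by 4.25 with cercosporamide (SE 0.46, adjusted p 4.01e-06), each higher in 4 of 4 replicates. The call with CID661578 was lost without the replicate block, at 3.04. The call with cercosporamide held under all 12 alternative fits (the stricter threshold is not one of them), which gave between 3.30 and 4.64.

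The TE of CXCL8 was estimated 1.50 higher with CID661578 (SE 0.41, Benjamini-Hochberg adjusted p 0.331 in edgeR's quasi-likelihood test, not called) and rose by 1.19 with cercosporamide (SE 0.41, adjusted p 0.0510), each higher in 4 of 4 replicates. Taken plate by plate with 0.5 CPM added, the TE differences were smaller, 0.42, 0.84, 0.85 and 0.88 with CID661578 and 0.25, 0.06, 0.98 and 0.28 with cercosporamide. The 0.5 CPM added is of the size of the CXCL8 levels in DMSO polysome libraries, 0.164 to 1.21 CPM, and so makes these differences smaller. The size therefore depends on how it is calculated, with few DMSO counts. How much of the gap between the 2 calculations this makes up was not tested. DESeq2 gave 1.53 with CID661578 and called it, as did edgeR without replicate 1, at 1.60. The cercosporamide TE change was not called without replicate 3 (1.08) or without the filter on low counts (1.13). It was 0.31 and not called with the GC trend of each library removed. The CXCL8 transcript had a GC content of 32.9%, lower than all but 0.130% of the tested genes, whose median was 47.5%. The slope of log2 CPM on GC content, per 10 percentage points, averaged 0.18 ± 0.11 in DMSO polysome libraries (SD, n = 4) and −0.13 ± 0.23 in cercosporamide polysome libraries. It averaged −0.04 ± 0.04 in DMSO total and 0.07 ± 0.36 in cercosporamide total libraries. With CID661578 the slope averaged 0.0014 ± 0.30 in total and −0.08 ± 0.25 in polysome libraries. With that trend removed the CXCL8 changes were 2.57 in polysome-associated RNA with CID661578 and 3.30 with cercosporamide, both called. For mRNAs translated more with the compounds, the study reports low GC content in the bases before the coding region. It reports high content there for mRNAs translated less. Removing the trend could therefore also remove a change made by the compounds, which was not tested.

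CXCL1, a chemokine that also acts on neutrophils, rose with cercosporamide. In total RNA it measured 3.11, 1.42, 3.99 and 2.74 CPM with DMSO, 3.06, 3.51, 1.21 and 6.15 with CID661578, and 8.75, 6.38, 13.0 and 18.9 with cercosporamide. All 4 cercosporamide libraries lay above all 4 DMSO libraries, while the CID661578 libraries spread over and beyond the DMSO range in both directions. The change in total RNA with cercosporamide was 1.98 (SE 0.41, higher in 4 of 4 replicates, Benjamini-Hochberg adjusted p 0.126 in edgeR's quasi-likelihood test). It stood close to the threshold, and was not called without replicate 1 (2.14), replicate 4 (1.70) or cercosporamide replicate 4 alone (1.84), nor without the block (2.05), with each fraction scaled on its own (1.93) or with edgeR's own expression filter (1.94). DESeq2 gave 1.99 with no adjusted p.

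In polysome-associated RNA CXCL1 had counts of 8, 17, 21 and 19 with DMSO, 22, 14, 16 and 29 with CID661578, and 67, 25, 59 and 2 with cercosporamide. The last count is from the library of low depth, where 2 reads stand for 1.32 CPM, inside the DMSO range of 0.755 to 1.96. The other 3 cercosporamide libraries, at 5.48, 2.04 and 5.35 CPM, lay above that range. The change was 1.43 (SE 0.41, higher in 3 of 4 replicates, Benjamini-Hochberg adjusted p 0.0198 in edgeR's quasi-likelihood test), and without replicate 1 it was 0.97 and not called. The TE estimates of CXCL1 were −0.63 with cercosporamide (SE 0.57) and 0.10 with CID661578 (SE 0.57), neither called. The former ran from −1.31 to −0.20 as replicates were left out. With CID661578 its log2 change was 0.26 in total and 0.26 in polysome-associated RNA.

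LIF, an interleukin-6 family cytokine that pancreatic cancers secrete, was called higher with CID661578 in both kinds of RNA. With cercosporamide it was called for TE only, and lower. In total RNA it measured 4.46, 7.33, 9.71 and 3.53 CPM with DMSO, 5.25, 26.1, 28.8 and 14.7 with CID661578, and 7.59, 20.5, 11.2 and 8.42 with cercosporamide. Each treated library was above the DMSO library of the same number, and 3 of 4 CID661578 libraries lay above all DMSO libraries. LIF rose by 1.47 in total RNA with CID661578 (SE 0.32, Benjamini-Hochberg adjusted p 0.0746 in edgeR's quasi-likelihood test), while the estimate of 0.93 with cercosporamide (SE 0.32) was not called. The CID661578 call was lost without replicate 2 (1.35), 3 (1.43) or 4 (1.28), without cercosporamide replicate 4 alone (1.45) and without the block (1.58). The cercosporamide estimate was called by DESeq2, at 0.94, and with the GC trend removed, at 0.83.

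In polysome-associated RNA LIF measured 4.06, 9.61, 22.8 and 5.82 CPM with DMSO, 10.7, 27.3, 21.2 and 11.6 with CID661578, and 5.56, 9.14, 15.1 and 1.32 with cercosporamide. The groups overlap, and the cercosporamide value of 1.32 CPM is 2 reads in the library of low depth. LIF rose by 0.93 with CID661578 (SE 0.28, higher in 3 of 4 replicates, Benjamini-Hochberg adjusted p 0.0676 in edgeR's quasi-likelihood test), a call lost without replicate 1 (0.81), replicate 2 (0.72) or the block (0.75). With cercosporamide the estimate was −0.27 and not called. The TE of LIF fell by 1.26 with cercosporamide (SE 0.45, lower in 4 of 4 replicates, Benjamini-Hochberg adjusted p 0.0572 in edgeR's quasi-likelihood test). That call was lost without replicate 2 (−1.14), replicate 4 (−0.98) or cercosporamide replicate 4 alone (−1.02), so the TE estimate was near −1 without the library of low depth but did not pass. With CID661578 the TE estimate of LIF was −0.52 (SE 0.43), not called, and it ran from −1.01 to −0.14 as replicates were left out.

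**Figure D3:**
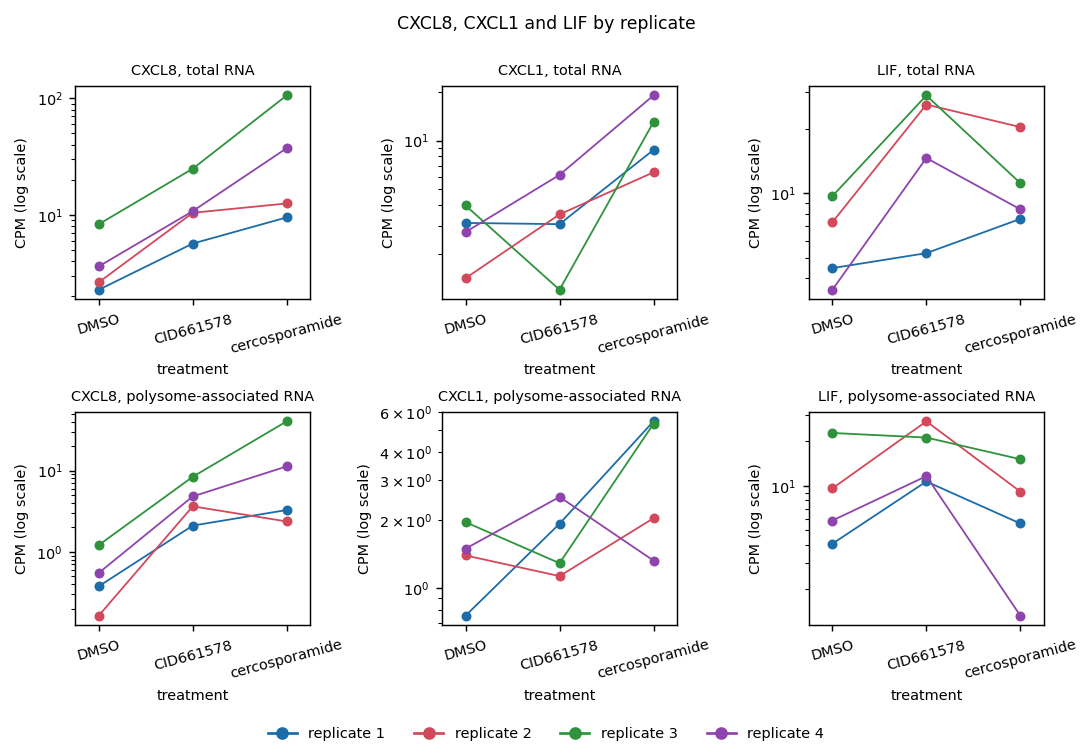
CPM (y axis, log scale) of CXCL8, CXCL1 and LIF by treatment (x axis) in total RNA (upper panels) and polysome-associated RNA (lower panels), with 1 line for each replicate number. The CXCL8 lines of all 4 replicates end above their DMSO points in both kinds of RNA, while in LIF the polysome-associated value of cercosporamide replicate 4 drops to 1.32 CPM.

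Stretches of the 3′ UTR of CXCL1 and LIF are shown as 2 examples of the AU-rich pentamer ATTTA among the members. The 3′ UTR of the annotated main transcript (build GRCh38) holds 6 ATTTA in CXCL1 (772 bases, 7.77 per kb) and 7 in LIF (3198 bases, 2.19 per kb). The capitals mark ATTTA in the 30 bases richest in it, at chr4:73870667-73870696 (plus strand) in CXCL1 and chr22:30240522-30240551 (minus) in LIF. Whether these elements play a part in the changes was not tested.
CXCL1: taggagaagtcttctATTTATTTATTTAtt
LIF: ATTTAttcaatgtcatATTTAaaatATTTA

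IL18, a cytokine made as a precursor and released after cleavage, and ICAM1, which leukocytes bind on the cell surface, were well measured and had no call with either compound. IL18 ranged from 51.5 to 83.0 CPM in DMSO total RNA, from 33.1 to 109.7 with CID661578 and from 46.4 to 133.2 with cercosporamide. Replicate 3 was the highest in each of these groups. The IL18 estimates were −0.23 and 0.23 in total RNA, −0.18 and 0.30 in polysome-associated RNA, and 0.02 and 0.05 in TE, with SE between 0.21 and 0.29. ICAM1 measured 72.2, 85.0, 57.2 and 76.3 CPM in DMSO total RNA and 77.0, 133.6, 67.5 and 170.4 with CID661578. Replicates 2 and 4 of CID661578 lay above all DMSO libraries and replicates 1 and 3 within their range. The log2 change of 0.57 (SE 0.23, higher in 4 of 4 replicates) had a Benjamini-Hochberg adjusted p of 0.629 in edgeR's quasi-likelihood test, and was not called. With cercosporamide the ICAM1 estimates were 0.21 in total RNA, 0.18 in polysome-associated RNA and −0.01 in TE.

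**Figure D4:**
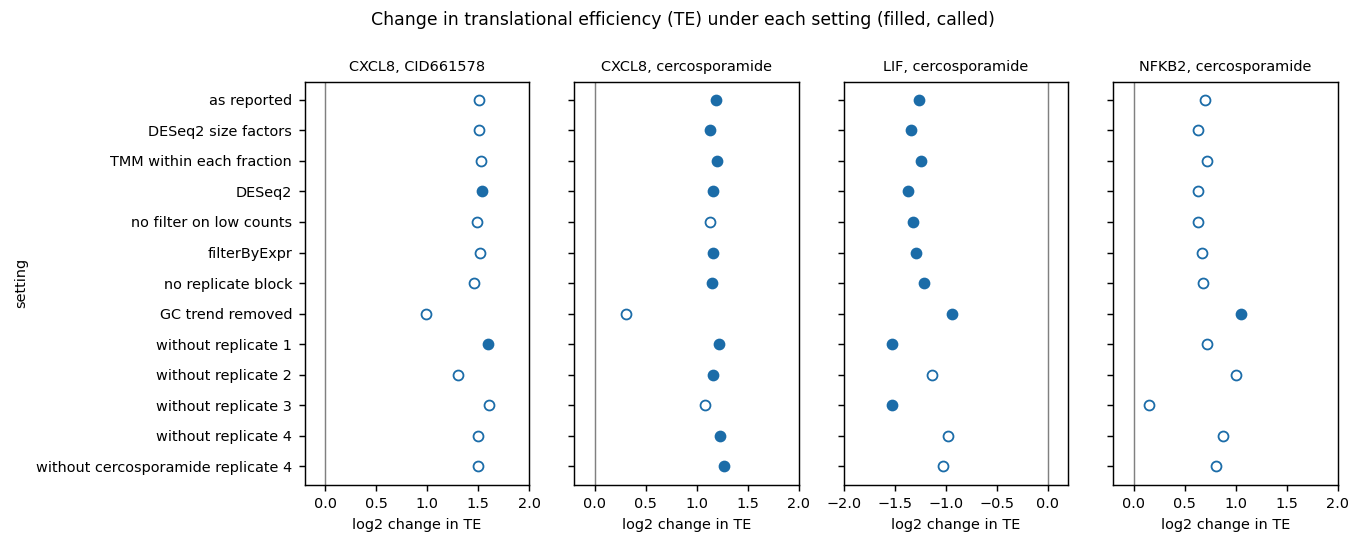
Log2 change in TE (x axis) of CXCL8 with each compound and of LIF and NFKB2 with cercosporamide under the reported fit and each alternative setting (y axis), with filled points where the change was called. The CXCL8 change with cercosporamide drops to 0.31 with the GC trend removed, and LIF lies below 0 under all settings shown.

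Other genes of the pathway were followed in lists. In total RNA with CID661578, and in TE with CID661578, 0 genes were called by edgeR in each of the 8 pathway lists, beside 0.448% and 0.207% of all genes. Among other inducible targets 20 of 25 were tested. In polysome-associated RNA 7 of the 20 rose and 1 fell with CID661578, where 10.1% of all genes were called, and 9 of the 20 rose with cercosporamide, where 32.2% were. The medians were 0.20 and 0.44. BIRC3, an inhibitor of apoptosis, rose by 1.74 with CID661578 (SE 0.26) and 1.24 with cercosporamide (SE 0.27) in polysome-associated RNA, and both calls held under all 12 alternatives, although the cercosporamide value was 0.56 with the GC trend removed. In TE with cercosporamide BIRC3 rose by 0.80 (SE 0.27), a call lost without replicate 3 (0.59) and with the GC trend removed (0.03). F3, tissue factor, rose by 1.52 in polysome-associated RNA with cercosporamide (SE 0.44), also under all 12. With CID661578 F3 rose by 1.55 there (SE 0.43), a call lost without the replicate block (1.39) and without replicate 1 (1.52), 2 (1.26) or 4 (1.33). GADD45B, a stress response gene, rose by 1.33 with CID661578 (SE 0.23), a call lost without the replicate block, at 1.27. In TE with cercosporamide 3 of the 20 rose and 3 fell, against 28.4% of all genes called, with IER3 lower at −1.09 (SE 0.29) under all 12 alternatives. BCL2L1 fell by 0.85 (SE 0.32), a call lost without the block (−0.81), without replicate 2 (−0.83), 4 (−0.59) or cercosporamide replicate 4 alone (−0.77) and with the GC trend removed (−0.55). TNFAIP8 rose by 1.18 (SE 0.47), a call that 6 of 12 alternatives kept, with 1.11, 1.19 and 1.03 without replicates 1, 2 and 4, 0.99 without cercosporamide replicate 4 alone, 1.12 with no filter and 0.55 with the GC trend removed, none of them called. In polysome-associated RNA TNFAIP8 rose by 1.07 with cercosporamide (SE 0.34), lost with the GC trend removed (0.62), and by 1.13 with CID661578 (SE 0.32), lost without the block (1.13), without replicate 1 (0.80) or 3 (1.04) and with the GC trend removed (0.83). TRAF1, a signalling adaptor, rose by 1.31 there with cercosporamide (SE 0.29), a call lost only without the block. BCL2A1 was the only gene of the list called in total RNA, 1 of 20 with cercosporamide beside 0.381% of all genes, at 1.09 (SE 0.25), a call that 5 of 12 alternatives kept. It was lost without replicate 1 (1.06), 3 (1.02) or 4 (0.79), without cercosporamide replicate 4 alone (0.79), without the block (1.01), with TMM within each fraction (1.05) and with filterByExpr (1.06).

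Of 24 other inducible chemokines and cytokines only 5 had a read in all libraries. CCL2, a monocyte chemokine, rose with cercosporamide by 1.01 in total RNA (SE 0.18) and by 1.42 in polysome-associated RNA (SE 0.21), the latter under all 12 alternatives. The total RNA call of CCL2 was lost without replicate 1 (1.09), 3 (0.87) or 4 (0.94), without cercosporamide replicate 4 alone (0.96) and without the block, with values between 0.87 and 1.15 over the 12 alternatives. In this list 2 of 5 rose in total RNA and 2 of 5 in polysome-associated RNA with cercosporamide, and 1 of 5 in polysome-associated RNA with CID661578, beside 0.381%, 32.2% and 10.1% of all genes. The second gene in the former pair and the gene called with CID661578 was CCL20, named after its values were seen. IL32 was lower in TE with cercosporamide, at −0.55 (SE 0.26), a call that 4 of 12 alternatives kept. Without replicates 1, 2 and 4 in turn it was −0.60, −0.56 and −0.47, without cercosporamide replicate 4 alone −0.44, without the block −0.55, with TMM within each fraction −0.54, with no filter −0.62 and with the GC trend removed −0.25, and none of these was called.

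In the list of the IKK complex and upstream signalling, 27 of 30 genes were tested. With cercosporamide 3 of the 27 rose and 2 fell in TE, and 3 rose and 4 fell in polysome-associated RNA, beside 28.4% and 32.2% of all genes called. With CID661578 2 of the 27 rose in polysome-associated RNA, against 10.1% of all genes. TBK1, an IKK-related kinase, rose with cercosporamide by 1.60 in TE (SE 0.32) and 1.32 in polysome-associated RNA (SE 0.21), called under all 12 alternatives but at 0.87 and 0.72 with the GC trend removed. With CID661578 TBK1 rose by 1.00 in polysome-associated RNA (SE 0.21), a call lost without the block (0.98) and with the GC trend removed (0.60). With cercosporamide the related kinase IKBKE fell by 1.55 in TE (SE 0.50) and by 1.04 in polysome-associated RNA (SE 0.36), both lost without replicate 2, at −1.41 and −0.85. BIRC2 rose by 0.99 in TE with cercosporamide (SE 0.24) and 0.80 in polysome-associated RNA with CID661578 (SE 0.18), both lost with the GC trend removed, at 0.27 and 0.42, and the latter also without the block, at 0.81. In polysome-associated RNA with cercosporamide BIRC2 rose by 0.78 (SE 0.18), lost with the GC trend removed, at 0.21. TANK, an adaptor of TBK1, rose with cercosporamide by 1.10 in TE (SE 0.39), lost with the GC trend removed (0.35) and without replicate 1 (1.08), 2 (0.94) or 3 (0.77). Its polysome change of 0.72 (SE 0.33) kept its call under 3 of 12 alternatives and was 0.13 without replicate 3 and 0.09 with the GC trend removed, and between 0.61 and 0.86 under the other 7 that lost it.

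Among 7 of 9 further subunits and IkB proteins that were tested, NKIRAS1 rose and NKIRAS2 fell with cercosporamide in TE and in polysome-associated RNA, 2 of 7 in each case beside 28.4% and 32.2% of all genes. These encode related Ras-like proteins that bind IkB. NKIRAS2 was at −0.96 in TE (SE 0.30) and −0.75 in polysome-associated RNA (SE 0.20) under all 12 alternatives, while NKIRAS1, at 1.07 in TE (SE 0.35), lost its call with the GC trend removed (0.39) and without replicate 2 (0.73). In polysome-associated RNA NKIRAS1 was at 0.65 (SE 0.21), lost without replicate 3 (0.55), without the block (0.65), with no filter (0.53) and with the GC trend removed (0.12). Of the 11 tested genes that restrain NF-kB through deubiquitinases and adaptors, 3 rose and 1 fell in TE with cercosporamide, against 28.4% of all genes called. N4BP1, which binds ubiquitin, had the largest of these changes, at 2.07 (SE 0.60), lost without replicate 1 (1.57), from counts of 2 to 17 in cercosporamide total RNA and 6 to 46 in cercosporamide polysome-associated RNA. Its mean level was 2.59 CPM with DMSO and 0.875 with cercosporamide in total RNA, and 2.40 and 3.09 in polysome-associated RNA. CYLD, a deubiquitinase, was at 1.37 (SE 0.51), lost without replicate 2 (1.07) or 4 (1.30) and with the GC trend removed (0.79). TNIP1, a partner of A20, was at −0.82 (SE 0.37), a call that 5 of 12 alternatives kept. It was −0.78, −0.61 and −0.67 without replicates 1, 2 and 4, −0.66 without cercosporamide replicate 4 alone, −0.74 without the block, −0.88 with no filter and −0.50 with the GC trend removed, none of them called. TAX1BP1, an adaptor of A20, rose with cercosporamide by 1.59 in TE (SE 0.25) and 1.66 in polysome-associated RNA (SE 0.18), called under all 12 alternatives but at 0.89 and 1.10 with the GC trend removed. It rose by 0.93 with CID661578 in polysome-associated RNA (SE 0.17), a call lost without the block, at 0.95, and kept at 0.56 with the GC trend removed.

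Of 11 tested receptors of 18, IL6ST, the signalling receptor shared by LIF, was the only one called with a compound, 1 of 11 where cercosporamide changed 28.4% of all genes in TE and 32.2% in polysome-associated RNA. Between the fractions of DMSO cells 6 of the 11 were called, against 56.0% of all genes. IL6ST rose with cercosporamide in TE (0.72, SE 0.23) and in polysome-associated RNA (0.83, SE 0.19), and with CID661578 in polysome-associated RNA (0.56, SE 0.19). With the GC trend removed these were −0.03, 0.21 and 0.14, and not called. The TE call was also lost with no filter (0.65), and the CID661578 call with no filter (0.54), without the block (0.57) and without replicate 1 (0.51), 3 (0.46) or 4 (0.48). Of the 12 proteins that bind AU-rich elements, TIA1 (0.97, SE 0.38) and HNRNPA1 (0.56, SE 0.24) rose in TE with cercosporamide, 2 of 12 against 28.4% of all genes. With the GC trend removed they were at 0.21 and 0.22, neither called. The TIA1 call was also lost with no filter (0.90) and without replicate 2 (0.68), 3 (0.84) or 4 (0.96), and the HNRNPA1 call, which 3 of 12 alternatives kept, without replicate 1 (0.64), 2 (0.45) or 4 (0.45) or cercosporamide replicate 4 alone (0.46), with DESeq2 size factors (0.49), DESeq2 (0.49), no filter (0.49) and filterByExpr (0.52). In polysome-associated RNA HNRNPA1 rose by 0.46 (SE 0.18), a call that 5 of 12 alternatives kept, and that was lost without replicate 2 (0.26) or 4 (0.44) or cercosporamide replicate 4 alone (0.42), without the block (0.38), with no filter (0.34), with filterByExpr (0.38) and with the GC trend removed (0.24). Of 4 tested genes of IL-18 processing out of 9, CASP8 rose (0.89, SE 0.33) and PYCARD fell (−0.92, SE 0.34) in TE with cercosporamide, 2 of 4 beside 28.4% of all genes, and with the GC trend removed the estimates, 0.48 and −0.55, were not called. With no filter CASP8 was at 0.82, without replicate 1 CASP8 was at 0.51 and PYCARD at −0.78, and without replicate 2 PYCARD was at −0.88, none of them called. In polysome-associated RNA, where 32.2% of all genes were called, CASP8 alone of the 4 rose, by 0.60 (SE 0.21), a call kept by 7 of 12 alternatives. The 5 others left out replicate 1 (0.37) or 4 (0.50), the block (0.64) or the filter (0.48), or removed the GC trend (0.33).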

How the data were processed

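The values are raw counts of reads per gene, which the authors made with a splice-aware aligner (build hg38) and featureCounts and deposited as 1 table. Total cytosolic and polysome-associated RNA of 12 plates of PANC1 cells gave 24 libraries, sequenced as Smart-seq2 libraries, with 1592459 to 12184749 reads on genes. Only the 12058 genes with a read in each library were tested. Libraries were scaled by TMM in edgeR 4.0.16 (R 4.3.3), and CPM use those scaled totals. Within a fraction, edgeR's quasi-likelihood test compared each compound with DMSO over 12 libraries with the replicate number as a block. The study itself used anota2seq, and edgeR takes its place here. TE and the ratio between fractions were tested over 24 libraries with a term for each plate and for each replicate in each fraction. P-values were adjusted by Benjamini-Hochberg over all tested genes, and a SE is the estimate divided by the square root of its F. The pairing follows the study's methods, which name the replicate as the batch, and libraries of the same number deviated together (r above 0.1) in 13 of 16 pairs, from −0.02 to 0.58. The 3 other pairs were CID661578 total replicate 1 (0.08) and cercosporamide polysome replicates 1 (−0.02) and 4 (0.06). Libraries of unlike number were not compared. The edgeR fits of TE and of each fraction were checked on simulated data, with changes set only in genes of higher counts. That check does not cover changes of members with few reads, such as TNFAIP3.

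The members and the lists were chosen with earlier results of these data known. All members were named, and from each list at most the 4 genes of largest change per comparison among those called with at least 10 counts in each DMSO library. The alternatives were DESeq2 size factors, TMM within each fraction, DESeq2 1.42.0, no filter, edgeR's filterByExpr, no replicate block, leaving out each replicate or cercosporamide replicate 4, an adjusted p below 0.05 and, chosen after seeing the data, removal of each library's GC trend (96.0% of tested genes had a GC value). Apart from the threshold of 0.05 these make the 12 alternative fits of each change. The study reports that mRNAs with translation changes differed in GC content before the coding region. Removing the GC trend could therefore also remove an effect of the compounds, which was not tested. Promoters came from RefSeq (GRCh38.p14) and gene models from GENCODE (GRCh38). The 3′ UTRs of the other members are not reported here. Intervals of counting error were not analysed here.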

Additional observations from a re-analysis of the deposited data

Results flagged for a closer look

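Of 66 groups of 4 libraries checked for a library far from its group, 4 held one whose gap to the nearest library, over the group's range, was above Dixon's 95% critical value, and chance alone gives about 1 in 20 groups. TNFAIP3 in DMSO polysome-associated RNA was 3.55 CPM in replicate 3, with the other 3 libraries between 0.566 and 0.865. ICAM1 in polysome-associated RNA with CID661578 was 167.9 CPM in replicate 2, with the others between 103.0 and 109.8. NFKB1 in total RNA with cercosporamide was 10.8 CPM in replicate 3, with the others between 4.08 and 5.15. The reads on genes in cercosporamide polysome replicate 4 were 1592459, with the others between 10661874 and 11660094. Their causes were not tested.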

How the results depend on the processing

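Of 22 member changes that were called, 5 kept their call and direction under all 12 alternative fits, which leave out the threshold of 0.05, 17 lost the call under at least 1 and 0 changed sign. Of 48 that were not called, 4 were called under at least 1 alternative and 19 changed sign under at least 1. Of 45 called changes of listed genes, 11 kept their call throughout. For the results that changed, the cause was not tested.

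Without the replicate block the members called fell to 0 in total RNA with each compound and in polysome-associated RNA with CID661578, and to 2 in polysome-associated RNA with cercosporamide. Without that pairing 9 of the 22 calls were lost. Calls over all genes fell in the same fit, to 5, 0, 69 and 1921 of 12058 in these 4 comparisons. With no filter on low counts 1 member was called in TE and 3 in polysome-associated RNA with cercosporamide. In total RNA with cercosporamide TMM within each fraction gave 1 and filterByExpr 1, and in TE with CID661578 DESeq2 gave 1. At an adjusted p below 0.05, which is stricter by construction, the counts were 0 for TE with cercosporamide, 1 in total RNA with CID661578, 1 with cercosporamide, 1 in polysome-associated RNA with CID661578, 3 with cercosporamide and 5 between fractions. Leaving out replicates gave 0 to 1 and 1 to 2 members for TE with CID661578 and cercosporamide, 0 to 3 and 1 to 2 in total RNA, 1 to 2 in polysome-associated RNA with CID661578, 4 in each case with cercosporamide (5 reported), and 5 to 9 between fractions.

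Signs changed in results that were not called, apart from IL6ST. With the GC trend removed and the replicate block kept, TE with CID661578 was 0.19 for NFKB2, −0.0109 for CXCL1 and −0.19 for IL18. TE with cercosporamide was then 0.12 for NFKBIA, 0.11 for TNFAIP3, −0.35 for IL18, 0.28 for ICAM1 and −0.0267 for IL6ST. In polysome-associated RNA it was 0.0176 for NFKB1, 0.24 for NFKB2 and 0.0891 for RELA with CID661578, and 0.13 for NFKB1 and 0.12 for RELA with cercosporamide. The TE of IL18 with no filter was −0.00163 with CID661578 and −0.0206 with cercosporamide, where DESeq2 size factors and DESeq2 each gave −0.0228. TMM within each fraction gave 0.000413 for the TE of ICAM1 with cercosporamide.

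Leaving out replicates, TE with CID661578 ran from −0.0969 to 0.38 for NFKB1, −0.69 to 0.0777 for NFKB2, −0.15 to 0.94 for TNFAIP3, −0.27 to 0.61 for CXCL1, −0.22 to 0.13 for IL18 and −0.49 to 0.20 for ICAM1. With cercosporamide it ran from −0.51 to 0.0795 for NFKBIA, −0.42 to 0.34 for TNFAIP3, −0.26 to 0.31 for IL18 and −0.26 to 0.14 for ICAM1. Total RNA ran from −0.10 to 0.49 for NFKB2 and −0.0851 to 0.79 for CXCL1 with CID661578, and −0.28 to 0.44 for NFKB2 with cercosporamide. Polysome-associated RNA ran from −0.18 to 0.13 for NFKB1, −0.12 to 0.0364 for NFKB2 and −0.39 to 0.0866 for RELA with CID661578. With cercosporamide it ran from −0.0617 to 0.0419 for NFKB1, −0.28 to 0.0422 for RELA and −0.12 to 0.42 for ICAM1.

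Over all tested genes the calls ran from 12 to 341 for TE with CID661578 (25 reported) and from 1816 to 3607 with cercosporamide (3422). In total RNA they ran from 5 to 242 (54) and from 0 to 766 (46), and in polysome-associated RNA from 69 to 1517 (1221) and from 1921 to 4121 (3881). TNFAIP3, CXCL1, CXCL8 and LIF had counts under 10 in at least 1 library, and in the shallowest library 2 reads stand for 1.32 CPM.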

Other observations

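Over the 12 total RNA libraries, the genes whose log2 CPM followed that of CXCL8 most closely, among 7539 genes of average log2 CPM of at least 3, were G0S2 (Pearson r 0.918), PLAU (0.891) and GLIPR1 (0.879). For NFKBIA they were C1orf122 (0.856), RPP25L (0.856) and RPLP0P9 (0.825), the last a pseudogene whose reads may belong to its parent gene. These are descriptions of libraries that share treatment, replicate number and depth.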
